A study of Mus musculus with 2 samples.

Results

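The cells described here are 417 lung T cells that carried messenger RNA of at least 2 of 5 genes, Nrgn, Dusp14, Cd200, Xcl1 and Sostdc1, and they are called marker-positive T cells below. They were selected on measured counts. A barcode had to have at least 500 genes, under 10% mitochondrial UMIs (unique molecular identifiers, each standing for 1 captured transcript), at least 2 UMIs of Cd3d, Cd3e and Cd3g together, no Lyz2 UMI, no Foxp3 UMI and under 2 UMIs of Mki67 and Top2a. Of 12537 barcodes in the 2 libraries, 6814 passed these filters, and 417 of those had a UMI of at least 2 of the 5 rule genes. The other 6397, called other T cells, are the cells they are compared with.

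The study measured CD4+ cells from mouse lung by droplet single-cell RNA sequencing with 10x Genomics 5′ reagents (version 2 chemistry), and its design text states that this was done to look for pathways under the control of NRF2 in helper T cells. There was 1 library from Nfe2l2fl/fl mice, called the control library, and 1 from Cd4cre Nfe2l2fl/fl mice. Both groups carried loxP-flanked (fl) alleles of Nfe2l2, the gene of the transcription factor NRF2, and the second also carried Cre recombinase driven by Cd4 regulatory sequences, which are active from the thymus on and so act in all T cells that passed through a CD4-bearing stage. Mice were 8 to 15 weeks old and had lung tissue taken 16 h after the last of several airway doses. Several airway models appear in the labels, which do not tie these libraries to one of them, and the number and sex of the mice are not stated. With 1 library per group there were no replicates, so no difference was tested. Every interval below is a 95% interval that covers counting error only, except where an interval over genes is named.

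A T cell that meets its antigen receives signals through its receptor that switch on NFAT, AP-1 and NF-kB, and within hours it makes cytokines, chemokines and surface receptors of the TNF family. CCL1 is a chemokine made by activated T cells and the ligand of CCR8, a receptor of type 2 helper and regulatory T cells in tissues. Follicular helper cells are a separate fate, in which BCL6 directs CD4+ T cells to help B cells and which is recognised by CXCR5, PD-1, ICOS and IL-21. Genes that mark the present cells, such as Cd200, have been linked to both states, and the 2 gene programs were therefore compared.

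The 250 bases before the RefSeq start were examined for 9 genes, because NFAT and AP-1 are among the factors that the T cell receptor switches on, and 3 of them are shown. Ccl1 had the highest ratio of the named genes, Tnfsf11 was found in most of the cells, and Xcl1 is a chemokine gene of the rule itself. Capitals mark matches to GGAAA, the core that NFAT binds, or to TGANTCA, an AP-1 site, on either strand, so that TTTCC is a match on the opposite strand. All 3 genes lie on the minus strand of GRCm38.p6, and each sequence is read 5′ to 3′ in the direction of the gene. The windows are chr11:82179813-82180062 for Ccl1, chr1:164935523-164935772 for the chemokine gene Xcl1 and chr14:78308044-78308293 for Tnfsf11, which encodes RANKL. In the GENCODE annotation the genes Ccl1 and Xcl1 extend beyond the RefSeq start into these windows.
Ccl1: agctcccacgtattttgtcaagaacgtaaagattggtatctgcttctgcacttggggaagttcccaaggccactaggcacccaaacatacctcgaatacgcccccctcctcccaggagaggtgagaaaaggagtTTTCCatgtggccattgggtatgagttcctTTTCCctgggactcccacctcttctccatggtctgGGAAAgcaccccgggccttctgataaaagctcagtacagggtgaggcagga
Xcl1: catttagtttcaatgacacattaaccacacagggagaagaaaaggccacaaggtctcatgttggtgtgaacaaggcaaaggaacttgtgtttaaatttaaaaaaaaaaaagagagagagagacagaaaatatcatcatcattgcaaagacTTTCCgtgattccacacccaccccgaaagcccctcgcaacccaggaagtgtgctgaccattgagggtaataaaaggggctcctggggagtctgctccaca
Tnfsf11: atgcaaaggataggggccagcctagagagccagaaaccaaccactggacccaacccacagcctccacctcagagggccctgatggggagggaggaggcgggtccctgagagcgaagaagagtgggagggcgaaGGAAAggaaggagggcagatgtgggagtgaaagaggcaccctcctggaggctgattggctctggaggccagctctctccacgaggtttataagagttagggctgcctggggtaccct
Ccl1 had 3 GGAAA matches in this window, and Xcl1 and Tnfsf11 had 1 each. Of the 9 windows examined, 5 held a GGAAA match and 4 (Nrgn, Cd200, Dusp14 and Cd81) held none. No AP-1 match was found in any of the 9. Over 32851 promoters of the same length, 55.6% held at least 1 GGAAA match, 6.39% held at least 3 and 6.75% held an AP-1 match. These letters are a description of the windows and not evidence of binding.

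Marker-positive cells made up 246 of 3621 filtered T cells in the control library (6.79%, 6.00 to 7.66) and 171 of 3193 in the library labelled Cd4cre (5.36%, 4.60 to 6.19). The difference of -1.44 percentage points had a counting interval of -2.57 to -0.299. They were deep cells, with a median of 9406 and 9396 UMIs against 5923 and 5274 in the other T cells, and a rule that needs UMIs of 2 genes favours deep cells. When each cell was first thinned to 2000 UMIs, 65 of 3543 cells (1.83%, 1.42 to 2.33) and 50 of 3110 cells (1.61%, 1.20 to 2.11) met the rule, and the difference of -0.227 points had an interval of -0.856 to 0.413 that spans 0. Median mitochondrial percentages were alike, at 2.01 in marker-positive cells of both libraries and 2.15 and 2.06 in the others.

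All barcodes together held 41391255 UMIs (control) and 38744058 UMIs (labelled Cd4cre), with medians of 5996 and 4813 per barcode. The libraries shared 49 barcode sequences. None of these was marker-positive in both, and 3 marker-positive cells of the control library and 1 of the other had a barcode also seen in the opposite library. Scrublet, a doublet caller, marked 2 and 26 cells, under 0.5% in each library, so it has not worked and doublets must be taken as present. The label CD4+ was checked on the lineage genes. Cd4 was detected in 92.7% and 95.9% of them, Trac in 88.2% and 87.1%, Cd8a in 2 cells and 1 cell, Cd8b1 in 29 (11.8%) and 19 (11.1%), and Trdc of gamma delta T cells in 4 and 2 cells. In other T cells Cd8b1 was detected in 6.79% and 6.55%. Markers of other cell types were more frequent than in other T cells. At least 5 UMIs of 32 such markers were present in 17 of 246 cells (6.91%, 4.08 to 10.8) and 12 of 171 cells (7.02%, 3.68 to 11.9), against 2.61% and 2.51% of other T cells. Some results are therefore also given without those cells.

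Of the 5 rule genes, Dusp14, a phosphatase that dampens receptor signalling, and Cd200, a surface glycoprotein, admitted most cells. Dusp14 was detected in 79.3% and 87.7% of marker-positive cells and Cd200 in 76.8% and 77.8%. Nrgn, a calmodulin-binding protein best known from neurons, was found in 53.3% and 45.6%. Xcl1 was found in 30 and 14 cells and Sostdc1, a secreted antagonist of BMP and Wnt signalling, in 13 and 9 cells. The pair Dusp14 and Cd200 alone admitted 175 of the 417 cells (42.0%), Nrgn with Dusp14 admitted 74 (17.7%), and the 3 genes Nrgn, Dusp14 and Cd200 together were present in 55 (13.2%). These frequencies follow from the rule and are given as a description. Just inside the threshold, 192 and 133 cells had exactly 2 rule genes, and just outside it 726 and 593 cells had 1. Cells with 3 rule genes numbered 42 and 34, those with 4 numbered 12 and 4, and no cell had 5.

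The rule was also met outside the filtered T cells. It admitted 29 of 678 cells with a Foxp3 UMI (4.28%) and 23 of 907 (2.54%), and 81 of 489 cycling cells (16.6%) and 40 of 309 (12.9%). Cycling cells were the deepest, with medians of 13714 and 12108 UMIs. After thinning to 2000 UMIs the shares were 2.88% and 0.980% of cycling cells and 0.150% and 0.224% of cells with Foxp3, against 1.83% and 1.61% of the filtered T cells.

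Levels below are UMIs summed over the cells of a class and library, in CPM (the gene's share of that sum on the usual scale), and a log2 ratio is marker-positive over other T cells within a library. Each printed log2 ratio is that of the plain CPM values, and 1.5-fold calls, list medians and plots use CPM with 2 added. Of 7136 genes with a mean of at least 10 CPM, 223 (3.12%) were at least 1.5-fold higher in marker-positive cells in both libraries and 226 (3.17%) were at least 1.5-fold lower in both. The median gene had a log2 ratio of 0.06. The mean was taken over both classes and both libraries, so a gene could pass the minimum through the class where it was higher. Counts of genes called, here and in the lists below, are partly set by this. The rule came from a grouping of these same cells over all genes, so these differences describe the selected cells and nothing was tested.

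**Figure D1:**
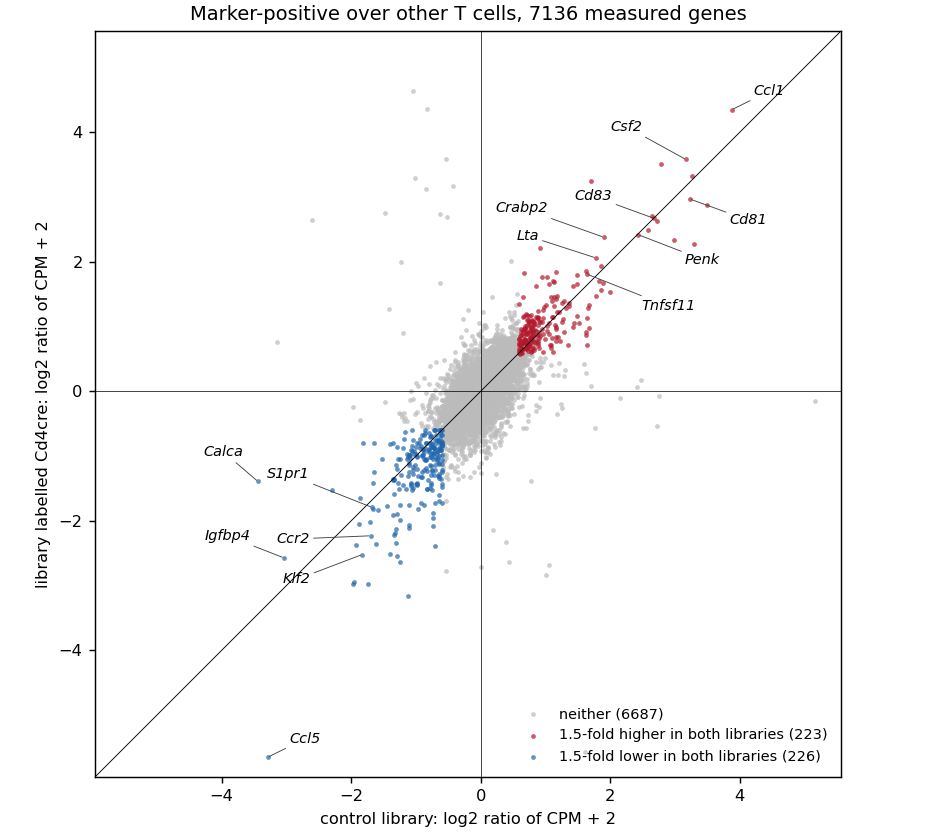
Each point is 1 of 7136 genes, placed by its log2 ratio of CPM + 2 in marker-positive over other T cells in the control library (horizontal axis) and in the library labelled Cd4cre (vertical axis); red points are at least 1.5-fold higher in both libraries, blue points at least 1.5-fold lower in both, and the diagonal marks equal ratios. Ccl1 lies at the upper right, with 3.88 and 4.35 on this scale, and Ccl5 at the lower left, with -3.29 and -5.65.

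The chemokine gene Ccl1 had the highest ratio of any gene that the naming rule covered. Its level was 497 CPM in marker-positive cells and 31.8 CPM in other T cells of the control library (log2 3.97, 3.83 to 4.10), and 1092 and 51.6 CPM in the library labelled Cd4cre (log2 4.40, 4.29 to 4.52). That level came from a minority of the cells. A Ccl1 UMI was present in 56 of 246 (22.8%, 17.7 to 28.5) and 40 of 171 (23.4%, 17.3 to 30.5) marker-positive cells, against 3.64% and 3.28% of other T cells. After thinning to 2000 UMIs the shares were 13.1% and 15.8% against 1.82% and 1.70%, and 0% and 0.161% in barcodes rich in macrophage RNA (at least 5 Lyz2 UMIs, median depth 2780 and 3570 UMIs), which should lack the gene. The counts were concentrated further, since the 3 highest cells held 54.8% of the 1282 UMIs of the control library and 63.0% of the 1950 UMIs of the other, and 1 cell held 631. At least 10 Ccl1 UMIs were found in 19 and 18 marker-positive cells. Conversely, marker-positive cells made up 31.3% (24.6 to 38.6) and 28.8% (21.4 to 37.1) of the filtered T cells with a Ccl1 UMI. So most marker-positive cells had no Ccl1 UMI and most cells with one were not marker-positive, which is why the cells are called here by their rule and not by Ccl1. The level without the single highest cell of each class remained at log2 3.66 and 3.96 on the CPM + 2 scale.

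Other secreted products were also higher. Csf2, which encodes the growth factor GM-CSF, was at 53.1 against 4.11 CPM in the control library (log2 3.69, 3.30 to 4.09) and at 85.7 against 5.33 CPM in the other (log2 4.01, 3.63 to 4.39). It too was made by few cells, being detected in 8.13% and 7.60% of marker-positive cells. Lta, the gene of lymphotoxin alpha, was at 54.3 against 14.4 CPM (log2 1.91, 1.62 to 2.20) and at 74.5 against 16.3 CPM (log2 2.19, 1.88 to 2.49). Penk, the precursor of the enkephalin opioid peptides, was at 263 against 47.1 CPM (log2 2.48, 2.34 to 2.62) and at 228 against 41.1 CPM (log2 2.47, 2.30 to 2.65), in 10.2% and 12.3% of marker-positive cells. The level of Tnfsf11, the TNF family ligand RANKL, was 516 against 164 CPM (log2 1.65, 1.56 to 1.74) and 628 against 177 CPM (log2 1.82, 1.73 to 1.92). Unlike Ccl1 and Csf2, Tnfsf11 was widespread, with a UMI in 82.9% and 84.2% of marker-positive cells. At 2000 UMIs per cell it was in 55.5% (49.0 to 61.8) and 60.8% (53.1 to 68.2) of them, against 18.8% and 18.7% of other T cells and 0% and 0.161% of macrophage-rich barcodes.

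The surface and signalling genes were led by Cd81, a tetraspanin. Its level was 247 against 24.6 CPM (log2 3.33, 3.16 to 3.50) in the control library and 216 against 25.7 CPM (log2 3.07, 2.87 to 3.27) in the library labelled Cd4cre. Cd83, an activation antigen of lymphocytes and dendritic cells, was at 134 against 19.2 CPM and 137 against 19.9 CPM (log2 2.80 and 2.79). Thinned shares for Cd83 were 17.1% and 17.0% against 2.40% and 2.59%. Barcodes rich in macrophage RNA had more of it than either class, at 27.8% and 31.0%. The dendritic cell marker list of 13 genes summed to 849 and 677 CPM in marker-positive cells and to 535 and 648 CPM in other T cells, and its members Flt3, Xcr1 and Cd209a were at 0 in marker-positive cells of the library labelled Cd4cre. The macrophage list of 15 genes summed to 196 and 209 CPM against 203 and 196 CPM. Without the cells that held 5 or more UMIs of other cell types the ratios of Cd83 were 2.86 and 2.78 and those of Cd81 were 3.36 and 2.99 (CPM + 2), as large as with them.

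Pdcd1lg2, the PD-1 ligand PD-L2, was at 80.7 against 28.7 CPM and 94.1 against 29.0 CPM (log2 1.49 and 1.70). Ece1, an endothelin-converting protease, was at 88.8 against 22.9 CPM and 104 against 25.6 CPM. Crabp2, a carrier of retinoic acid, was at 67.5 against 16.7 CPM (log2 2.02) and 92.9 against 16.3 CPM (log2 2.51), but its direction in the library labelled Cd4cre did not hold under other forms of the rule. There its ratio was -0.18 when the rule was applied after thinning and -1.86 when 3 rule genes were required (CPM + 2). The early endosome tether Eea1 was at 252 against 105 CPM and 251 against 95.8 CPM, and the metalloprotease inhibitor Timp2 at 107 against 46.4 CPM and 88.5 against 36.7 CPM. Marcksl1, a substrate of protein kinase C, was at 122 against 36.7 CPM and 107 against 41.0 CPM. Of the remaining leading genes, Ccdc28b, Prelid2 and Pacsin1 had log2 ratios between 1.34 and 2.00.

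Ccl5, the chemokine of memory and cytotoxic T cells, headed the lower genes. It was at 45.4 against 460 CPM in the control library (log2 -3.34, -3.62 to -3.08) and at 56.0 against 2918 CPM in the other (log2 -5.70, -6.00 to -5.42). The larger ratio in the second library follows from the level in the other T cells, since the level in marker-positive cells was similar in both. Of the other lower genes, Klf2, a transcription factor that keeps T cells in circulation, was at 99.3 against 358 CPM (log2 -1.85, -2.03 to -1.67) and 65.5 against 387 CPM (log2 -2.56, -2.84 to -2.30). Its target S1pr1, the receptor for exit from tissue, was at 24.0 against 81.3 CPM (log2 -1.76) and 25.2 against 92.4 CPM (log2 -1.87). Igfbp4, a gene of naive T cells, was at 13.6 against 126 CPM and 17.9 against 116 CPM. The chemokine receptor gene Ccr2 was at 53.5 against 179 CPM and 33.0 against 163 CPM. Calca, which encodes the neuropeptide CGRP, was at 8.92 against 116 CPM (log2 -3.71) and 33.6 against 91.4 CPM (log2 -1.44). Vps37b, a subunit of the ESCRT machinery, was at 188 against 518 CPM and 199 against 681 CPM. Ctla2a, Gramd3, Ripor2, Arid5a and Rasgrp2 completed the named lower genes, with log2 ratios between -2.42 and -1.40.

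The comparison of the follicular helper program with acute activation used 2 gene lists. Of 24 follicular helper genes, 21 were measured. 4 of them (19.0%) were higher in both libraries, 4 (19.0%) were lower in both, and 13 were neither. Their median log2 ratio was 0.16 (interval over genes -0.48 to 0.62), beside 0.06 over all measured genes. It was 0.09 in the control library and 0.23 in the library labelled Cd4cre. Of 40 acute activation genes, 36 were measured, 14 (38.9%) were higher in both libraries, none was lower in both and 22 were neither. Their median was 0.50 (interval over genes 0.23 to 0.95), with 0.57 and 0.40 in the 2 libraries. The intervals of the 2 list medians overlap. The share of all measured genes called higher was 3.12%. Bcl6 and Btla of the higher follicular genes, and Csf2 and Il2 of the higher activation genes, were under 10 CPM in other T cells of both libraries. They passed the minimum only through their level in marker-positive cells. Both lists were chosen with results of these data known, and Ccl1, Csf2 and Cd83 were already known to lead these cells, so the counts describe the cells and are not independent evidence.

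The follicular genes that were higher included the defining factor. Bcl6, the transcription factor of the follicular fate, was at 19.4 against 6.41 CPM in the control library (log2 1.60, 1.10 to 2.07) and 14.6 against 8.08 CPM in the library labelled Cd4cre (log2 0.85, 0.19 to 1.46). In thinned cells it was detected in 4.49% (2.26 to 7.89) and 3.51% (1.30 to 7.48) of marker-positive cells, against 1.30% and 1.63% of other T cells and 1.18% and 4.17% of macrophage-rich barcodes. The second share was therefore no higher than in barcodes of macrophages. Il21, the cytokine of follicular helper cells, was at 37.2 against 18.2 CPM (log2 1.03, 0.70 to 1.36) and 31.9 against 12.2 CPM (log2 1.39, 0.94 to 1.82). Tbc1d4, a Rab GTPase regulator, was at 118 CPM in both libraries against 53.9 and 52.2 CPM (log2 1.13 and 1.18). The inhibitory receptor gene Btla was at 15.1 against 8.75 CPM and 17.4 against 9.42 CPM.

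The receptors by which follicular helper cells are recognised did not move as 1 group. Cxcr5, the receptor that leads cells into follicles, lay under the level minimum, at 6.20 against 4.33 CPM and 8.96 against 3.48 CPM. Thinned to equal depth, Cxcr5 was in 3 of 245 (1.22%, 0.253 to 3.54) and 1 of 171 (0.585%, 0.0148 to 3.22) marker-positive cells, against 0.910% and 0.510% of other T cells, so a difference was not detectable at this depth. At full depth Cxcr5 was in 6.10% and 7.02% of marker-positive cells against 2.43% and 1.59% of other T cells. Marker-positive cells were deeper, and they held 16 Cxcr5 UMIs in each library. Icos, the costimulatory receptor, was lower, at 367 against 639 CPM (log2 -0.80, -0.90 to -0.70) and 356 against 619 CPM (log2 -0.80, -0.92 to -0.68). Pdcd1, the gene of PD-1, was at 532 against 461 CPM and 439 against 325 CPM (log2 0.21 and 0.43), short of 1.5-fold. In thinned cells Pdcd1 was in 62.9% (56.5 to 68.9) and 49.7% (42.0 to 57.4) of marker-positive cells, against 42.1% and 32.8% of other T cells. Sh2d1a, the adaptor SAP that follicular help depends on, was at 220 against 144 CPM (log2 0.61) and 217 against 148 CPM (log2 0.55), and was not past 1.5-fold in both libraries. The transcription factor genes Maf (201 against 283 CPM and 203 against 281 CPM) and Tcf7 (88.0 against 125 CPM and 90.1 against 125 CPM) were on the lower side of 0. Lef1, a partner of TCF1, was lower, at 40.7 against 87.4 CPM and 40.9 against 79.1 CPM. Gpr183, a receptor for oxysterols, was also lower, at 56.2 against 92.5 CPM and 48.7 against 101 CPM. This gene is known to be lost from follicular helper cells, so its direction is not counter to that program although it stands among the 4 lower genes of the list.

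**Figure D2:**
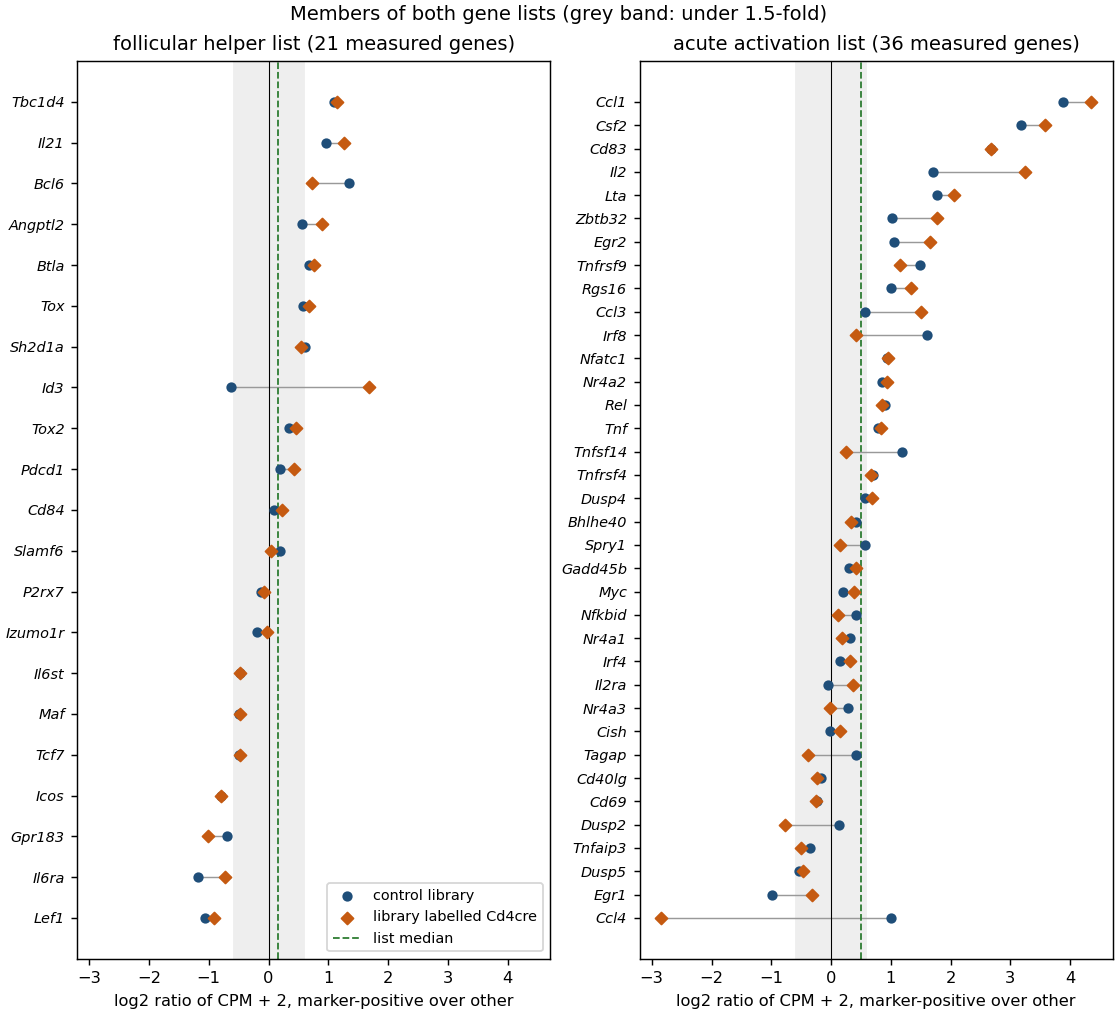
Log2 ratios of CPM + 2 in marker-positive over other T cells are shown for the 21 measured follicular helper genes (left) and the 36 measured acute activation genes (right), with circles for the control library, diamonds for the library labelled Cd4cre, a grey band for ratios under 1.5-fold and a dashed line at the list median. The follicular helper genes spread on both sides of 0 around a median of 0.16, and the acute activation genes reach from Ccl1 at the top to Ccl4, whose 2 libraries lie on opposite sides, around a median of 0.50.

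Of the other acute activation genes that were higher, several encode cytokines, receptors and transcription factors. Beside Ccl1, Csf2, Lta and Cd83, the cytokine gene Tnf was at 69.0 against 39.2 CPM and 66.1 against 36.1 CPM (log2 0.82 and 0.87). Il2, the T cell growth factor, was at 17.8 against 4.11 CPM and 52.6 against 3.76 CPM, but only 6 and 10 marker-positive cells held it and 1 cell held 76.1% and 59.6% of its UMIs. Of the TNF receptors, Tnfrsf4 (OX40) was at 923 against 569 CPM (log2 0.70, 0.63 to 0.76) and 948 against 598 CPM (log2 0.66, 0.59 to 0.74), and Tnfrsf9 (4-1BB) was at 117 against 40.5 CPM and 122 against 53.7 CPM (log2 1.53 and 1.19). Nfatc1, the NFAT member that its own pathway induces, was at 269 against 139 CPM and 248 against 127 CPM (log2 0.95 and 0.97). Rel, an NF-kB subunit, was at 163 against 85.8 CPM and 197 against 108 CPM (log2 0.93 and 0.86). The nuclear receptor gene Nr4a2 was at 158 against 86.6 CPM and 211 against 110 CPM, and Egr2 at 29.1 against 13.0 CPM and 34.7 against 9.70 CPM. Rgs16, a regulator of G protein signalling, was at 658 against 325 CPM (log2 1.02, 0.94 to 1.10) and 646 against 254 CPM (log2 1.35, 1.25 to 1.44). Zbtb32, a repressor induced in activated T cells, was at 52.7 against 25.1 CPM and 69.4 against 19.0 CPM.

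Other early genes of the response were not past 1.5-fold in both libraries. Cd69, an antigen that appears within hours of stimulation, was at 354 against 417 CPM (log2 -0.24, -0.34 to -0.14) and 385 against 461 CPM (log2 -0.26, -0.37 to -0.15). Egr1, an immediate early transcription factor, was at 61.7 against 124 CPM (log2 -1.01) and 103 against 129 CPM (log2 -0.32). Nr4a1, the gene of NUR77 and a common reporter of receptor signalling, was at 862 against 689 CPM and 717 against 630 CPM (log2 0.32 and 0.19). Cd40lg, the ligand by which helper T cells act on B cells, was at 179 against 201 CPM and 157 against 187 CPM. Il2ra, Irf4 and Myc had log2 ratios between -0.05 and 0.40. Among 21 measured immediate early and dissociation genes, none was higher in both libraries, 2 (Btg1 and Socs3) were lower, and the median was -0.07. Over all measured genes 3.12% were higher and 3.17% lower, so finding none higher among 21 is near that share and is no result about these genes. The same cells therefore had 14 activation genes past 1.5-fold in both libraries, Nr4a2, Egr2 and Tnf among them. Of 36 measured activation genes, 25 lay above 0 in both libraries and 5 below 0 in both, Cd69 and Egr1 among the latter. Early genes thus did not share 1 direction, and the cells are called by their rule and not by a time of activation.

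**Figure D3:**
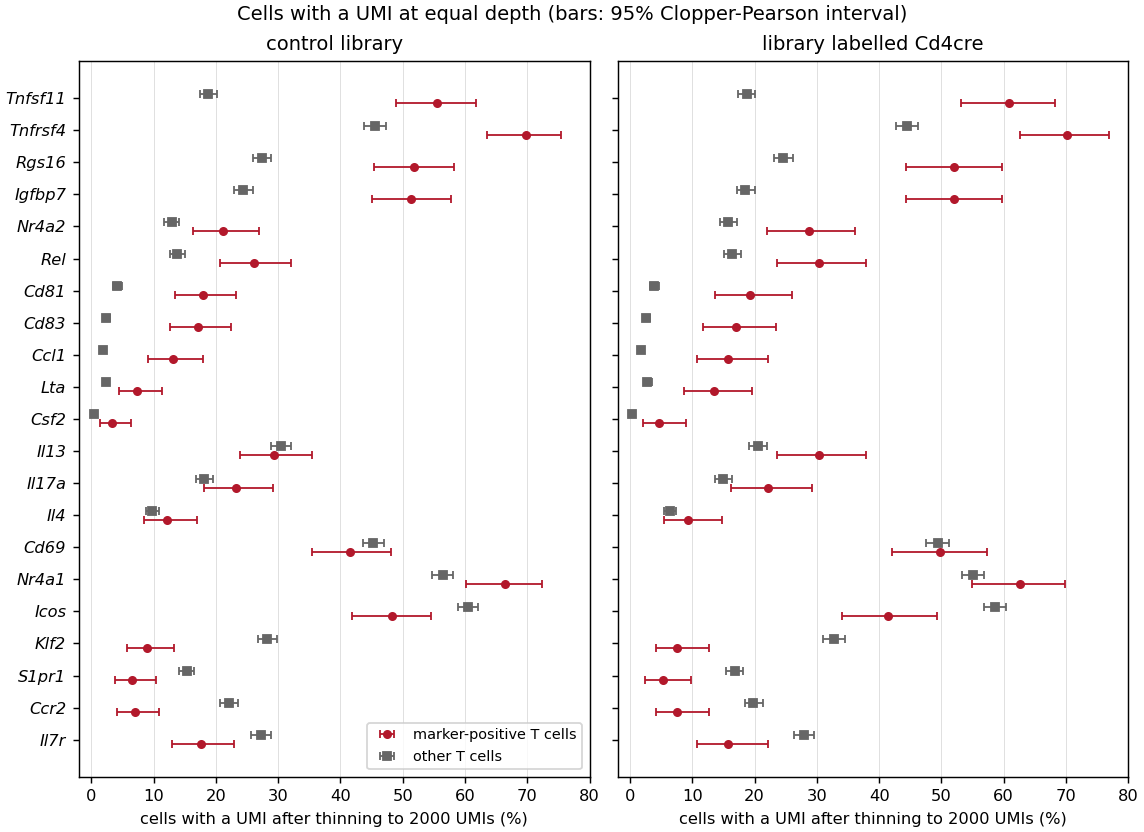
Share of cells with a UMI of each gene after thinning every cell to 2000 UMIs, in percent, for marker-positive and other T cells of the control library (left) and the library labelled Cd4cre (right), with 95% Clopper-Pearson intervals. Tnfsf11 separates the classes most, at 55.5% and 60.8% against 18.8% and 18.7%, Klf2 lies the other way at 8.98% and 7.60% against 28.2% and 32.7%, and Cd69 is close together at 41.6% and 49.7% against 45.3% and 49.4%.

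Shares at equal depth were taken in the cells selected at full depth. In thinned cells Tnfrsf4 was detected in 69.8% and 70.2% of marker-positive cells against 45.5% and 44.5% of other T cells. Rgs16 was in 51.8% and 52.0% against 27.4% and 24.6%. Cd81 was in 18.0% and 19.3% against 4.15% and 3.81%. The egress receptor gene S1pr1 was in fewer marker-positive cells, at 6.53% and 5.26% against 15.3% and 16.8%. These shares repeat the order of the CPM values for the 4 genes. When the rule itself was applied to thinned cells, which leaves 65 and 50 of them, 52 of 72 values of single named genes moved and 4 changed sign. The 4 were Crabp2 in the library labelled Cd4cre, and Tyrobp, Cd74 and Ddit4 between the libraries.

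Levels followed the number of rule genes for part of these genes. Going from cells with no rule gene to cells with 1, 2 and at least 3, Tnfsf11 was at 137, 240, 468 and 656 CPM in the control library, and at 148, 268, 609 and 695 CPM in the library labelled Cd4cre. Cd81 was at 21.1, 34.2, 165 and 485 CPM, and at 17.0, 52.6, 137 and 492 CPM. Tbc1d4 went from 47.7 to 156 CPM and from 45.9 to 172 CPM. For these 3 genes the order held at every step in both libraries, and cells with 1 rule gene, outside the threshold, lay between those with none and those with 2. Klf2 was lower at each step in the control library, at 416, 194, 112 and 63.5 CPM, and was at 439, 224, 63.3 and 73.2 CPM in the other. Ccl1 did not keep one order, with 19.6, 65.9, 181 and 1412 CPM in the control library but 25.5, 133, 1293 and 384 CPM in the library labelled Cd4cre. Cd69 stayed between 348 and 464 CPM in every group.

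**Figure D4:**
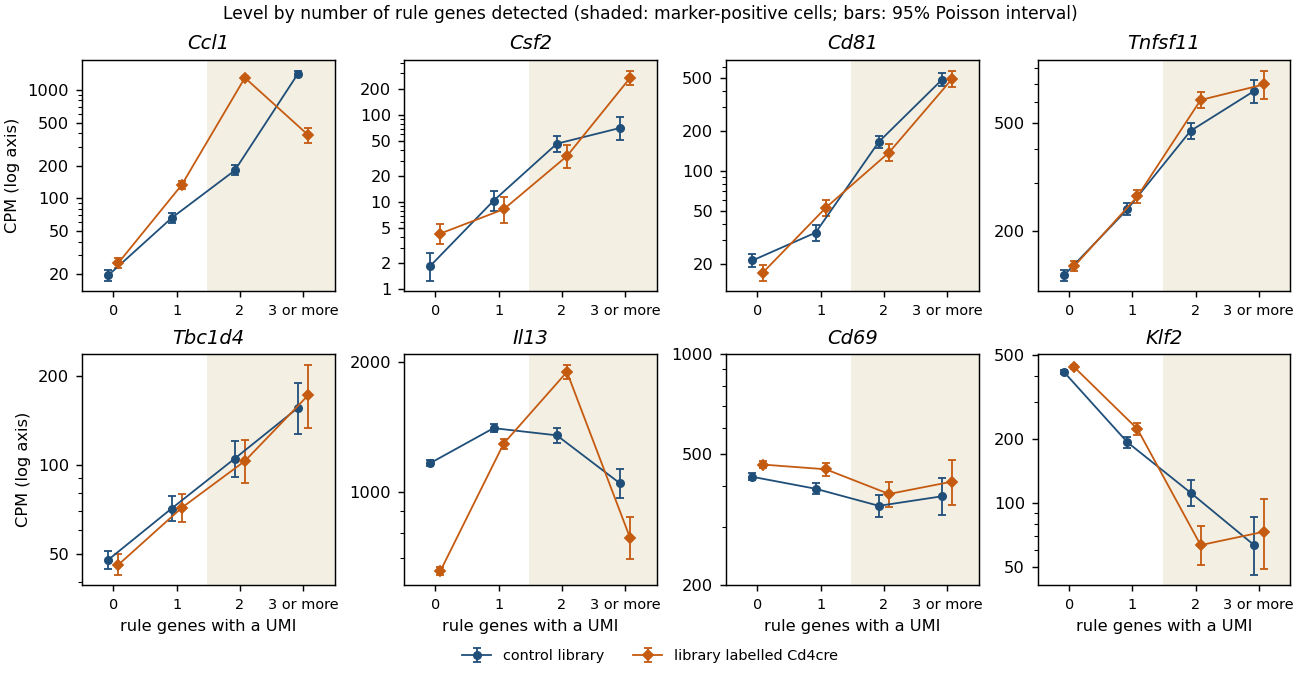
Level in CPM (log axis) of 8 genes in filtered T cells with 0, 1, 2 and at least 3 rule genes detected, for the control library and the library labelled Cd4cre, with 95% Poisson intervals; the shaded part holds the marker-positive cells. Tnfsf11, Cd81 and Tbc1d4 are higher with each further rule gene, Il13 and Cd69 show no such order in both libraries, and Ccl1 peaks at different numbers in the 2 libraries.

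Gene lists for the surrounding biology were read in the same way, as counts beside the 3.12% and 3.17% of all measured genes. Of 15 measured ligands and receptors of the TNF family, 6 (40.0%) were higher, none was lower, and the median log2 ratio was 0.67. Besides Tnfsf11, Tnfrsf4 and Tnfrsf9 these were Tnfsf8 (CD30 ligand, 396 against 226 CPM and 578 against 282 CPM), the death receptor gene Fas and the ligand gene Tnfsf10 (TRAIL). Of 19 measured NF-kB targets, 3 were higher (Bcl2a1d, Ebi3 and Nfkb2) and none was lower, with a median of 0.30. Nfkb2, an NF-kB subunit gene, was at 127 against 83.9 CPM and 134 against 85.9 CPM, and Ebi3, a subunit shared by IL-27 and IL-35, at 35.7 against 13.1 CPM and 36.4 against 13.7 CPM. Proximal receptor signalling genes had 0 of 17 called in either direction and a median of 0.05. Calcium and NFAT feedback genes had 3 of 16 higher (Dgkz, Egr2 and Nfatc1) and 1 lower (Ppp3ca, a calcineurin catalytic subunit), with a median of -0.05. Biosynthesis and growth genes had 2 of 27 higher (Ran and Srm) and none lower, with a median of 0.40. Srm, the spermidine synthase gene, was at 57.0 against 25.1 CPM and 68.3 against 19.5 CPM. NRF2 target genes had 0 of 18 called and a median of 0.15.

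The lower genes were concentrated in homing and in the naive state. Of 23 measured migration and residence genes, 10 (43.5%) were lower and 1 (Ccr6) was higher, with a median of -0.79. Rgs1, which dampens chemokine receptor signalling in tissue T cells, was at 950 against 1763 CPM and 900 against 1682 CPM (log2 -0.89 and -0.90). The residence integrin gene Itgae was also lower, at 18.6 against 40.4 CPM and 12.3 against 32.5 CPM. The list thus held lower genes of both egress and tissue retention. Ccr8, the receptor for CCL1, was at 544 against 410 CPM and 473 against 336 CPM (log2 0.41 and 0.49), under 1.5-fold. Of 10 measured naive and central memory genes, 8 (80.0%) were lower and none was higher, with a median of -1.13, and the IL-7 receptor gene Il7r was at 89.6 against 188 CPM and 83.4 against 190 CPM. Interferon response genes had 7 of 20 lower (35.0%) and none higher, with a median of -0.52. Isg15, a ubiquitin-like protein induced by interferon, was at 125 against 229 CPM and 198 against 300 CPM. Among coinhibitory and costimulatory receptors 3 of 19 were higher (Btla, Cd160 and Pdcd1lg2) and 2 were lower (Cd96 and Icos), with a median of -0.07. Cd160, a receptor that shares its ligand HVEM with BTLA, was at 30.6 against 3.40 CPM and 19.0 against 1.74 CPM. Like Btla, it passed the level minimum only through marker-positive cells.

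Lineage genes did not place the marker-positive cells in 1 helper class. Of 19 measured helper cytokine genes, 7 were higher (Csf2, Il17f, Il2, Il21, Lta, Tgfb1 and Tnf) and 1 was lower, with a median of 0.54. The lower gene was Il10, an anti-inflammatory cytokine, at 102 against 248 CPM (log2 -1.28, -1.46 to -1.10) and 68.9 against 200 CPM (log2 -1.54, -1.81 to -1.28). Cells with no rule gene had 250 and 199 CPM of it in the 2 libraries, and cells with at least 3 had 43.9 and 45.5 CPM. Il17f, a cytokine of Th17 cells, was at 72.9 against 21.4 CPM and 54.3 against 26.6 CPM (log2 1.77 and 1.03). Of the Th17 list, 4 of 10 were higher (Ccr6, Il17f, Tmem176a and Tmem176b) and 1 was lower. The Th2 list had 1 of 14 higher, Igfbp7, and 2 lower, Calca and the IL-33 receptor gene Il1rl1. Igfbp7, a secreted IGF-binding protein, was at 733 against 333 CPM (log2 1.14, 1.07 to 1.21) and 842 against 260 CPM (log2 1.69, 1.61 to 1.78). The Th1 list had 0 of 10 higher and 2 lower (Ccl5 and Gzmk).

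The type 2 cytokine gene Il13 differed between the libraries. It was at 1272 against 1228 CPM in the control library (log2 0.05) and at 1648 against 810 CPM in the library labelled Cd4cre (log2 1.03, 0.97 to 1.08). Thinned shares were 29.4% (23.8 to 35.5) against 30.4% in the former and 30.4% (23.6 to 37.9) against 20.5% in the latter. The share of marker-positive cells with Il13 was thus close in the 2 libraries, and that of other T cells was not. At 2 or more UMIs of Il4, Il5 and Il13 in thinned cells, 26.9% and 25.1% of marker-positive cells counted as type 2 producers, against 24.6% and 16.6% of other T cells. At 2 or more UMIs of Il17a and Il17f, 20.8% and 18.1% counted, against 15.2% and 12.9%. Both programs in 1 cell were seen in 4.49% (2.26 to 7.89) and 1.75% (0.363 to 5.04) of marker-positive cells and in 1.91% and 1.46% of other T cells. Of all the marker-positive cells at this depth, 55.1% and 55.6% had neither of these programs nor 2 UMIs of Ifng.

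Cells with and without Ccl1 were compared within the marker-positive cells, which the rule did not separate by Ccl1. Those with a Ccl1 UMI were deeper, with medians of 11265 and 10989 UMIs against 8744 and 8866. Igfbp7 was detected in 96.4% and 92.5% of them, against 69.5% and 62.6% of those without. Il13 was detected in 58.9% and 67.5% against 40.0% and 38.2%, and Ifng, the cytokine of Th1 cells, in 41.1% and 42.5% against 12.1% and 15.3%. The Th17 cytokine genes lay the other way despite the greater depth. Il17a was detected in 25.0% and 20.0% of cells with Ccl1 and in 32.1% and 34.4% of those without. Il17f was in 1 of 56 (0.0452 to 9.55%) and 0 of 40 (0 to 8.81%) cells with Ccl1, against 10.5% and 11.5% of those without. Bcl6 was in 21.4% and 12.5% of cells with Ccl1 and in 15.8% and 13.0% of those without, a difference without one direction in the 2 libraries. Csf2 was in 17.9% and 17.5% against 5.26% and 4.58%.

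The few cells with Sostdc1 had another profile. These 13 and 9 marker-positive cells, with median depths of 7277 and 7610 UMIs, held no Ccl1 UMI and no Csf2 UMI in either library, and 0 counts allow up to 25.4 and 43.1 CPM. The 129 and 78 marker-positive cells with Nrgn and no Sostdc1, with medians of 9764 and 9512 UMIs, were at 829 and 2000 CPM for Ccl1 and at 98.4 and 157 CPM for Csf2. Rgs16 was at 390 and 115 CPM in the cells with Sostdc1 and at 912 and 817 CPM in the cells with Nrgn. Of the 24 follicular helper genes, 16 were at a higher CPM in the cells with Sostdc1 than in those with Nrgn in both libraries. Another 4 (Bcl6, Cd84, Id3 and Pdcd1) were at a lower one in both. Of the 40 acute activation genes, 2 were higher and 26 were lower in both. No such count was made over all genes. A gene with UMIs only in the more numerous cells with Nrgn counted as lower. The 2 lists therefore cannot be ranked by these counts. Il21 was at 102 and 144 CPM against 27.9 and 10.8 CPM, in 46.2% and 55.6% of the cells with Sostdc1 against 18.6% and 7.69%. Tcf7, the gene of TCF1, which sustains follicular and stem-like memory cells, was at 212 and 460 CPM against 81.6 and 76.5 CPM. Slamf6, a receptor that signals through SAP, was at 161 and 144 CPM against 53.6 and 33.5 CPM. Tbc1d4 was at 314 and 302 CPM against 129 and 117 CPM, and Pdcd1 was at 542 and 359 CPM against 603 and 531 CPM. Cxcr5 was in 2 and 3 of the cells with Sostdc1 and Bcl6 in 1 and 0, too few to compare. Cells outside the threshold whose only rule gene was Sostdc1, 5 and 12 in number, likewise held no Ccl1 or Csf2 UMI, with Tcf7 at 615 and 362 CPM and Slamf6 at 154 and 333 CPM. These subsets were chosen after their values were seen and hold few cells, so they are described only.

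**Figure D5:**
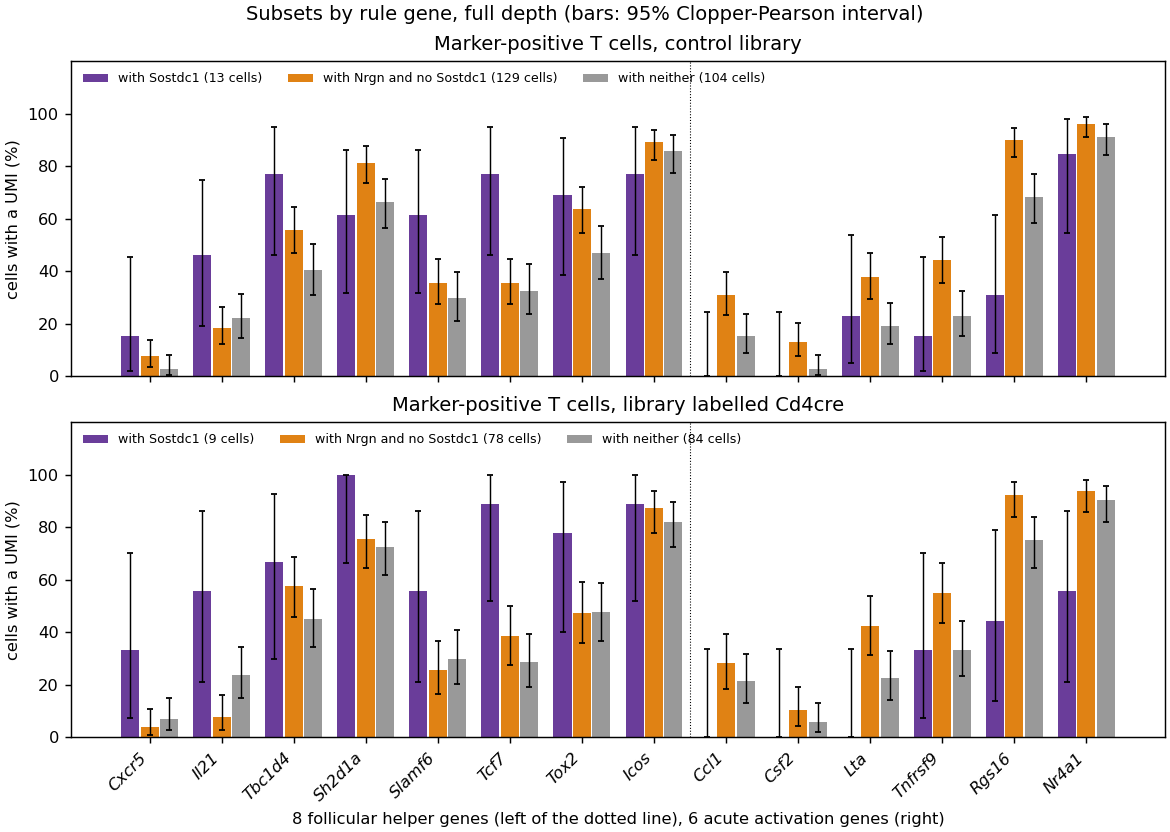
Share of marker-positive T cells with a UMI at full depth, in percent, of 8 follicular helper genes (left of the dotted line) and 6 acute activation genes (right), for cells with Sostdc1, cells with Nrgn and no Sostdc1, and cells with neither, in the control library (top) and the library labelled Cd4cre (bottom), with 95% Clopper-Pearson intervals. Cells with Sostdc1, 13 and 9 in number, show no Ccl1 or Csf2 and have Il21 in 46.2% and 55.6%, against 18.6% and 7.69% of cells with Nrgn.

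V gene use was compared, which does not identify clones. Among marker-positive cells with a beta chain V gene, Trbv3 was found in 43 of 245 (17.6%, 13.0 to 22.9) and 27 of 167 (16.2%, 10.9 to 22.6), against 11.9% and 11.6% of other T cells, and Trbv16 in 15.9% and 20.4% against 14.4% and 12.9%. The pairing of Trbv20 with Trav9-2, which was present in 96 of 3022 other T cells (3.18%, 2.58 to 3.87) of the library labelled Cd4cre, was found in 2 of 171 marker-positive cells there (1.17%, 0.142 to 4.16). In the control library it was in 3 of 246 marker-positive cells (1.22%, 0.252 to 3.52) and 12 of 3375 other T cells (0.356%, 0.184 to 0.620). The 2 libraries thus went opposite ways, on 2 and 3 marker-positive cells.

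Between the libraries, the targeted gene was examined first within the marker-positive cells. Nfe2l2 (chromosome 2, 75675513 to 75704641, minus strand, GRCm38) was at 36.1 CPM in the control library and at 195 CPM in the library labelled Cd4cre (log2 2.44, 2.10 to 2.78), with a UMI in 65 of 246 and 145 of 171 cells. In other T cells the levels were 35.3 and 184 CPM (log2 2.38, 2.27 to 2.50), so the marker-positive cells did not stand apart. A higher level is the opposite of what a loss of the transcript would give. Which exons Cre removes is not stated, and 5′ libraries read the start of a transcript, so whether the gene was deleted cannot be read from its level, and each direction below depends on the labels. Of the 30 listed NRF2 targets 17 were measured, 0 of them were past 1.5-fold in either direction, and the median log2 ratio was -0.02. Over all 5247 measured genes 1.43% were higher and 2.00% lower, and the median was also -0.02. A count of 0 of 17 is near those shares and is no result about the targets. Nqo1, a quinone reductase and NRF2 target, lay under the level minimum, and gave 4 UMIs against 1 in the library labelled Cd4cre within the marker-positive cells, and 18 against 3 UMIs in other T cells (log2 -2.24, -4.65 to -0.47). Gclm, the modifier subunit of glutamate-cysteine ligase in glutathione synthesis, was at 88.4 CPM in the control library and 124 CPM in the other, and the catalytic subunit gene Gclc was at 36.1 and 39.8 CPM.

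Of 5247 genes with a mean of at least 20 CPM in marker-positive cells, 75 (1.43%) were at least 1.5-fold higher in the library labelled Cd4cre and 105 (2.00%) at least 1.5-fold lower, and the median was -0.02. Ccl1 was at 497 and 1092 CPM (log2 1.14, 1.03 to 1.24), while the share of cells with it was 22.8% and 23.4%, and 1 cell held 631 of the 1950 UMIs in the second library. Il5, the eosinophil growth factor gene, was at 134 and 247 CPM (log2 0.88, 0.68 to 1.09), although in other T cells it was at 131 and 105 CPM. Il4 lay the other way, at 181 and 104 CPM (log2 -0.81, -1.06 to -0.56), as did Il17a at 1322 and 876 CPM (log2 -0.59, -0.68 to -0.51). Other T cells had the same directions for Il4, at 142 and 87.5 CPM (log2 -0.70), and for Il17a, at 1090 and 904 CPM (log2 -0.27). So did Ccl1 there, at 31.8 and 51.6 CPM (log2 0.70). These 3 directions were thus not particular to the marker-positive cells. The shares of marker-positive cells with a UMI were closer, at 13.8% and 15.8% for Il5, 21.5% and 19.3% for Il4 and 30.5% and 31.0% for Il17a. The acute activation list had 5 of 35 genes higher and 3 lower in that library and a median of 0.06. The follicular helper list had 1 of 17 higher and none lower, with a median of -0.04.

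The genes with the largest ratios between the libraries mostly rested on a few cells. Saa3, an acute phase protein, had 0 and 359 UMIs, of which 1 cell held 83.6%. The matrix and stromal genes Mgp, C3, Col3a1, Sod3 and Bgn had 0 to 2 UMIs in the control library but 112 to 303 in the library labelled Cd4cre, where 3 to 6 cells held them. Hspb1, a small heat shock protein, had 5 and 119 UMIs, with 81.5% of the latter in 1 cell. The endothelial, epithelial and stromal marker list summed to 42.7 and 151 CPM in marker-positive cells and to 51.9 and 50.9 CPM in other T cells, with Dcn and Acta2 at 0 in the former, and its part in these differences was not tested. In cells of 4000 to 12000 UMIs the ratios of C3, Col3a1 and Bgn were -0.43 each (CPM + 2). Each of these 3 genes had only 1 UMI in all marker-positive cells of the control library. That value is therefore at the floor and gives no direction. Of the 75 higher genes, 10 (13.3%) had most of their UMIs in 1 cell. Among the lower genes, Gzma, a granzyme, came from 1 cell in each library, and Ccl4, the chemokine MIP-1 beta, had 175 UMIs in 13 cells and 8 UMIs in 5 cells. Tyrobp, a gene of myeloid and NK cells, and Cd74 and Irf8, genes shared with myeloid and B cells, were at 75.2 and 22.4, 312 and 153, and 69.0 and 33.6 CPM. Their directions did not hold. The ratio of Tyrobp was 0.02 and that of Irf8 was 0.20 in cells of 4000 to 12000 UMIs, and Cd74 was at 0.85 without the filter on Lyz2. More widely detected genes were Ddit4, an mTORC1 inhibitor induced by stress, at 208 and 116 CPM (log2 -0.84, -1.08 to -0.61), and Crbn, a ubiquitin ligase receptor, at 55.8 and 27.4 CPM (log2 -1.03, -1.52 to -0.55). With the rule applied after thinning, Ddit4 too changed direction, to 0.22 (CPM + 2). Ddit4 had a similar ratio in other T cells, at 211 and 126 CPM, whereas Crbn was at 62.5 and 56.4 CPM there (log2 -0.15, -0.27 to -0.03). Stmn1, a microtubule regulator of dividing cells, was at 95.4 and 43.7 CPM (log2 -1.13, -1.51 to -0.75) in marker-positive cells and at 52.0 and 51.0 CPM in the others. Its ratio was -0.22 in cells of 4000 to 12000 UMIs.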

How the data were processed

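The deposited matrices hold raw UMI counts per gene and barcode, made by the authors with Cell Ranger 4.0.0 on GRCm38, per the submitters' processing notes. The annotation used for counting was not given in the sources used here. The other deposited files hold gene names and cell barcodes. Coordinates came from GENCODE mouse release 21 and promoter sequences from RefSeq (GRCm38.p6).

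UMIs were summed over the cells of each class and library, and a gene was measured at a mean of at least 10 CPM (20 between libraries). Called means past 1.5-fold, in both libraries for marker-positive against other T cells. Intervals are 95%: exact Poisson for CPM, conditional binomial for ratios, Clopper-Pearson for shares and Newcombe for differences of shares. Those over genes, for list medians, came from binomial ranks of the list members. The members and gene lists were chosen with earlier results of these data known. Named genes were the 16 highest and 12 lowest by the smaller of the 2 libraries' ratios, with at least 50 CPM, and the 8 highest and 8 lowest between libraries. Members of the lists were also named, leaving out TCR, immunoglobulin, ribosomal, mitochondrial and sex-linked genes and gene models. Scripts (Python 3.11.15, numpy 2.4.6, scipy 1.17.1, pandas 2.3.3, scanpy 1.11.5, matplotlib 3.10.9) were tested on simulated data. Alternatives covered the depth, rule, cell filter, doublets, reference cells, scaling, weights, minimum and pseudocount.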

Additional observations from a re-analysis of the deposited data

Results flagged for a closer look

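Of 161 list genes examined, 7 lay on opposite sides of 0 in the 2 libraries when marker-positive T cells were set against other T cells, with both counting intervals off 0. In each case the difference was not tested, since each group holds 1 library. Gzma, a granzyme, had a log2 ratio of 1.73 (1.44 to 2.01) in the control library and -6.00 (-7.06 to -5.12) in the library labelled Cd4cre, with all its UMIs in 1 marker-positive cell of each library. Ccl4 had 1.05 (0.81 to 1.29) and -3.31 (-4.52 to -2.32). Nkg7, a gene of cytotoxic granules, had 0.46 (0.37 to 0.54) and -0.36 (-0.47 to -0.25). For Cyp11a1, which starts steroid synthesis, the ratios were -1.67 (-2.47 to -0.98) and 1.51 (0.90 to 2.07). Those of Id3, a transcriptional inhibitor, were -0.75 (-1.48 to -0.10) and 1.82 (1.45 to 2.17), with 76.4% of its UMIs in 1 marker-positive cell of the second library. The phosphatase gene Dusp2 had 0.14 (0.03 to 0.25) and -0.77 (-0.92 to -0.64), and Tagap, a GTPase activator, had 0.43 (0.18 to 0.67) and -0.39 (-0.74 to -0.06).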

How the results depend on the processing

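No paired analysis was possible because there was 1 library per genotype, and for the same reason no replicate could be left out. Over 13 alternatives, 60 of 83 summary values lay within the main value's counting interval, its interval over genes or, for counts of genes, 1.5 times, 22 did not and 1 changed sign. The share difference with at least 3 rule genes was -0.301 points. The acute activation median stayed between 0.26 and 0.74. The follicular helper median ranged from -0.00251, with equal weight per cell, to 0.31. Applying the rule after thinning gave a share difference of -0.227 points, 614 genes higher and 437 lower than in other T cells (122 and 134 of the main ones), and 1240 higher and 1205 lower between libraries. The ratio of Crabp2 was then -0.18 in the library labelled Cd4cre, and between libraries that of Tyrobp was 4.95, Cd74 0.46 and Ddit4 0.22. With at least 3 rule genes 440 genes were higher than in other T cells, 559 and 538 were higher and lower between libraries, and Crabp2 was at -1.86. In cells of 4000 to 12000 UMIs the counts between libraries were 161 and 213. There C3, Col3a1 and Bgn were at the floor, with ratios of -0.43, Tyrobp was at 0.02 and Irf8 at 0.20. Without the Lyz2 filter Cd74 was at 0.85. No minimum CPM gave 441 and 396 genes, and 768 and 784 between libraries. A mean of at least 50 CPM gave 78 and 77, and 27 and 16. Adding 10 CPM gave 135 and 149, and 49 and 52. Without cells with markers of other types, an alternative chosen after seeing the data, as was leaving out each gene's top cell, Hspb1 was at -0.36, Gzma at 2.03 and Irf8 at 0.02 between libraries. There 70 genes were higher and 109 lower between libraries, of which 44 and 74 were among the main 75 and 105. The acute activation median was then 0.39 and the follicular helper median 0.14. The cause was not tested, except that thinning and stricter rules leave fewer cells or UMIs. Main counts were 223, 226, 75 and 105.

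Depth limits the rule itself: thinned to equal depth it was met by 65 and 50 cells. With 1 library per group, differences between libraries cannot be told apart from differences between mice or preparations. Genes under 10 CPM, Cxcr5 among them, are too sparse for a comparison.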
